A study of Homo sapiens with 16 samples.

Results

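The zinc finger genes of chromosome 19 were taken as the protein-coding genes on that chromosome, in GENCODE release 44, whose symbol is ZNF followed by digits and an optional letter. There were 246 of them, 83 on the short arm and 163 on the long arm, among the 1476 protein-coding genes of chromosome 19 and the 20033 of all main chromosomes. The symbol alone chose the genes, and no measured value entered the rule. They were compared with the other 1230 protein-coding genes of chromosome 19 and with 262 genes of the same naming pattern on other chromosomes.

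Marks were mapped by CUT&RUN, in which a nuclease tethered to an antibody cuts the chromatin beside it and the released fragments are sequenced, and each library came as 1 list of called peaks. The cells were MCF-10A, an established line of nontransformed breast epithelium, which received vehicle (PBS) or 5 mM octanoic acid (OA) for 24 hours. H3K4me3 and H3K27me3 were each profiled in 3 vehicle and 3 OA libraries from separate cultures, and untreated cells gave 2 H3K4me3 libraries as a positive control and 2 IgG libraries as a negative control. All groups are one cell line, and no genotype was altered. Vehicle replicates 1, 2 and 3 held 19953, 16381 and 16086 H3K4me3 peaks and OA replicates 17988, 17975 and 21033, whereas the H3K27me3 lists ranged from 9091 (OA replicate 3) to 47648 (vehicle replicate 2). Basal mammary markers were checked by their start sites: KRT5 and ITGB4 had an H3K4me3 peak in all 6 vehicle and OA libraries, CDH1 in 5 and KRT14 in 2, both of them vehicle, while TP63 had none at its canonical start and one at another annotated start in 3. PTPRC, CD3E, PECAM1 and CDH5, markers of leukocytes and endothelium, had none at their canonical starts, and PTPRC had one at another start in 1 library. Of the fibroblast markers, COL1A2 and PDGFRB had none and COL1A1 had a peak in 4 libraries, whose part in any result was not tested.

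Most of these genes encode C2H2 zinc finger proteins, transcription factors that read DNA through tandem fingers each held by a zinc ion. Many carry an N-terminal KRAB domain, which binds the corepressor TRIM28 (KAP1) and through it the H3K9 methyltransferase SETDB1 and HP1 proteins. The family grew by repeated tandem duplication on chromosome 19, and many of its members bind transposable elements. H3K4me3 marks active and poised promoters, and H3K27me3 is the repressive mark of the Polycomb complexes.

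The upstream sequences of 6 of these genes show what the marks are read against. Each is the 200 bases before the RefSeq start site on GRCh38.p14, written 5′ to 3′ on the gene's strand, with CG dinucleotides in capitals. ZNF557 (chr19:7069503-7069702, plus strand) had the highest mean percentile of H3K4me3 fold enrichment among the genes called in every vehicle and OA library. ZNF91 (chr19:23395472-23395671, minus strand), ZNF85 (chr19:20923051-20923250, plus strand), ZNF43 (chr19:21836183-21836382, minus strand) and ZNF208 (chr19:22010944-22011143, minus strand) are related neighbours in the pericentromeric cluster of the p arm. ZNF382 (chr19:36605113-36605312, plus strand) has the most CG dinucleotides of the 6 and had no peak.
ZNF557: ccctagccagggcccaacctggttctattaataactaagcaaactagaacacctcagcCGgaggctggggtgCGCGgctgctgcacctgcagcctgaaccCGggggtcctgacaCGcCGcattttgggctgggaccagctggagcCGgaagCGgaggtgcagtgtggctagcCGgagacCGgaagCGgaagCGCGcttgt
ZNF91: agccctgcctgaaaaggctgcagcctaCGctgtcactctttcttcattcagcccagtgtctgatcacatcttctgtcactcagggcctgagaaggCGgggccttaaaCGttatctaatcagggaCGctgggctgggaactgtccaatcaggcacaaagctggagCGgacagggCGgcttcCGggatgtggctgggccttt
ZNF85: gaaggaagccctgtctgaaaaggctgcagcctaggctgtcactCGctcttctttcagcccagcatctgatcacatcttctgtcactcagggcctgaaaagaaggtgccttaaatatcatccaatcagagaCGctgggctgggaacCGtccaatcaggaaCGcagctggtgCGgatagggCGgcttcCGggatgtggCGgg
ZNF43: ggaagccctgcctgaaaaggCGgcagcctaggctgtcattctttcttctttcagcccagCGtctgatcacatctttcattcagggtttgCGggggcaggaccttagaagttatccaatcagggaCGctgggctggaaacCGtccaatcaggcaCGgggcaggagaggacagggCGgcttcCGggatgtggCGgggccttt
ZNF208: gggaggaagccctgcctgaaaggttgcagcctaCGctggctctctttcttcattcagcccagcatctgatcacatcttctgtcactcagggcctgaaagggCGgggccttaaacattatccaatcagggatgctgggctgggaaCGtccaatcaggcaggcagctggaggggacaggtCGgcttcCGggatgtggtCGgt
ZNF382: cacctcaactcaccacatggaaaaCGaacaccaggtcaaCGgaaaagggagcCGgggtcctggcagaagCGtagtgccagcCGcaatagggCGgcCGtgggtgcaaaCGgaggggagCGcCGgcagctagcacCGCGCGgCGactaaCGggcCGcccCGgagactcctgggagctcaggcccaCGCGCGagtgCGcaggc
ZNF91 and ZNF85 had an H3K4me3 peak at the start site in all 6 vehicle and OA libraries and in both untreated ones, whereas ZNF43 and ZNF208 had none in any of these 8. Yet the 4 upstream sequences hold 7, 8, 9 and 6 CG dinucleotides in that order and align with 83.1% to 89.4% identity, beside 54.5% to 58.3% for the pairs of this set that include ZNF557 or ZNF382. ZNF557 holds 13 CG dinucleotides and ZNF382 holds 21.

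H3K4me3 was found at the start sites of most chromosome 19 zinc finger genes. Vehicle replicates 1, 2 and 3 had a called peak within 1 kb of the start site of 191, 182 and 175 of the 246 genes, and OA replicates 1, 2 and 3 at 190, 186 and 198. The untreated libraries had a peak at 157 and 130, and the IgG libraries at 0 and 0. Of the genes with a peak in all 6 vehicle and OA libraries, 126 were also called in both untreated ones and 20 in neither. Over the 6 vehicle and OA libraries the share was 76.0% ± 3.23 (SD, n = 6), against 52.8% ± 4.30 of the other genes of the chromosome. The difference was 23.2 ± 1.98 percentage points and had the same direction in every library. ZNF genes on other chromosomes stood at 84.2% ± 3.05, above the share on chromosome 19. These shares describe the gene lists and were not tested, since genes are not replicates.

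**Figure D1:**
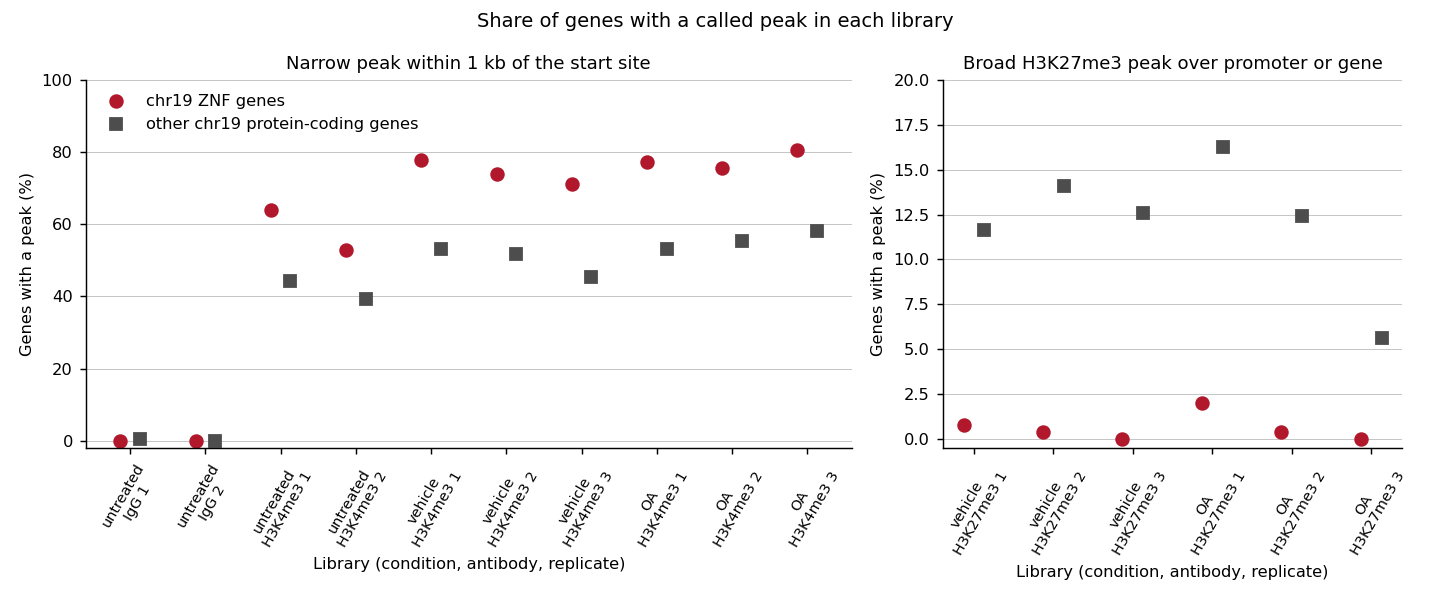
Share of chromosome 19 ZNF genes (circles, 246 genes) and of the other chromosome 19 protein-coding genes (squares, 1230 genes) with a called peak, in percent, 1 point per library. Left, narrow peaks within 1 kb of the start site, where the ZNF genes are higher in all 8 H3K4me3 libraries; right, broad H3K27me3 peaks over promoter or gene body, where they are lower in all 6.

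The calls were close to all or none. In the 6 vehicle and OA libraries, 174 genes (70.7%) were called every time and 48 (19.5%) never, and the latter had no peak in the untreated libraries either. Among the other chromosome 19 genes, 44.6% were called in all 6 and 41.2% in none. Only 24 zinc finger genes lay between, in 1 to 5 libraries. The called genes had 188 distinct merged regions (regions joined over libraries and kept with a peak in at least 2 of them), with a median length of 1257 bp against 1447 bp at the other genes, and 10 genes shared their region with another zinc finger gene. The peak summits of the 174 constant genes lay at a median of 143 bp downstream of the start site, and 82.3% of them were downstream, beside 138 bp and 77.0% at the other chromosome 19 genes called in all 6.

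Among the 174 constant genes, the fold enrichment of the promoter peak, the caller's ratio of reads at the peak to its local background, was given as its percentile within each library because the libraries are not scaled to each other. ZNF557, a KRAB zinc finger gene with 10 fingers, reached fold enrichments of 13.8, 17.4 and 18.0 in vehicle and 11.7, 16.6 and 17.4 in OA. Its mean percentile was 97.8 ± 0.929 (SD, n = 6), the highest of the 174. ZNF317 (97.4 ± 1.21), ZNF749 (97.3 ± 2.13), ZNF416 (96.9 ± 2.61) and ZNF551 (96.5 ± 1.85) followed. The neighbours in this order differed by less than their spread over the libraries. ZNF749, ZNF416 and ZNF551 lie in the same cluster at the end of the q arm.

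At the lower end, ZNF581 had fold enrichments of 4.34, 4.73 and 6.20 in vehicle and 3.78, 5.01 and 4.42 in OA. Its mean percentile was 14.2 ± 9.84. ZNF580, its neighbour, stood at 14.9 ± 11.2 and shares the merged region chr19:55640769-55644513 (hg38), so their values are not independent. ZNF570 stood at 16.5 ± 9.62, ZNF576 at 37.8 ± 11.8 and ZNF575 at 37.8 ± 17.0. The summit pileup at ZNF581, recovered from the fold and p-value, was 84, 105 and 22 reads in vehicle and 41, 125 and 97 in OA. Its local background was 18.6, 21.4 and 2.71 reads in vehicle and 10.1, 24.1 and 21.2 in OA, above that of ZNF557 in every library, whereas its pileup was near the family medians given next.

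Across the family the fold and the pileup also differed in rank. Called zinc finger genes had a median percentile of the fold of 83.2, 84.5 and 71.5 in the vehicle replicates and of 80.3, 84.7 and 79.9 in the OA replicates, a mean of 80.7 ± 4.95 against 62.1 ± 3.56 at the other chromosome 19 genes (SD, n = 6). Their median pileup was 68, 88 and 27 reads in the vehicle replicates and 38, 86.5 and 92 in the OA replicates, and its ratio to the other genes was 0.981 ± 0.101, within the spread between libraries. Their median local background was 5.15, 5.71 and 1.51 reads in the vehicle replicates and 3.47, 5.70 and 7.01 in the OA replicates, and its ratio was 0.780 ± 0.112, below 1 in all 6 libraries. Zinc finger promoters thus ranked higher by fold at a similar pileup and a lower background. Ranked by −log10 p instead of fold, the lead over the other genes was 4.89 ± 5.42 percentile points in place of 18.6 ± 2.90. ZNF genes on other chromosomes stood at 70.2 ± 1.25 by fold, and the lead over them was 10.5 ± 4.56 points. Why the surrounding background was lower was not tested.

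**Figure D2:**
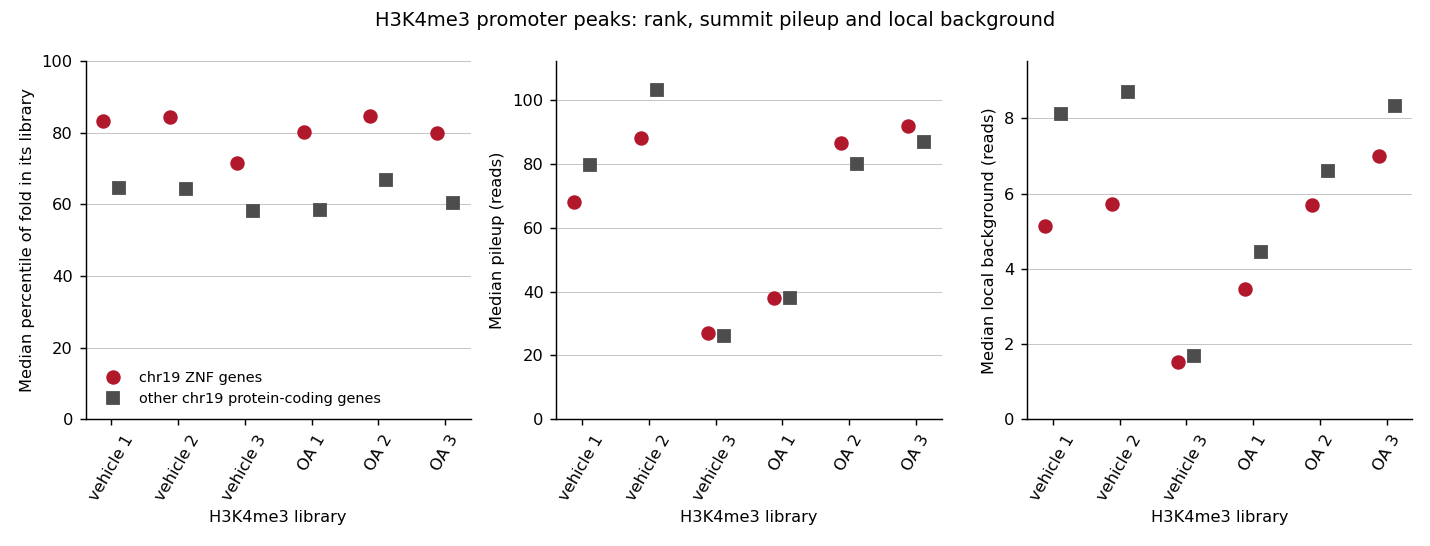
Promoter peaks of chromosome 19 ZNF genes (circles) and other chromosome 19 genes (squares), medians over called genes in each vehicle and OA H3K4me3 library. From left, percentile of the fold within the library, summit pileup in reads and local background in reads; the circles are higher in the first panel, mixed in the second and lower in the third.

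The promoters of the family were somewhat poorer in CG than those of other genes and more often held the motif CCGGAAG. In the 300 bases from 250 before to 50 after the start site, the zinc finger genes had a median of 20 CG dinucleotides and a GC content of 59.2%, the other chromosome 19 genes 22 and 64.2%, and all protein-coding genes 23 and 63.7%. CCGGAAG, the core that ETS-family factors bind, was found on either strand in 44.7% of the zinc finger promoters, 15.1% of the other chromosome 19 promoters, 31.7% of ZNF promoters on other chromosomes and 14.1% of all promoters. CCAAT was in 52.8%, against 36.1% of all promoters, GGGCGG in 67.5% against 61.3%, and TATAAA in 2.85% against 9.71%. GCATGCGC was in 4.47% against 4.27%, ATGGCGG in 8.94% against 7.82% and TGACGTCA in 3.66% against 2.69%. Both strands were searched, matches of different motifs may overlap, and a match is only a description of the sequence. Within the family 70.9% of the promoters with CCGGAAG and 70.6% of those without it were called in all 6 libraries. At the other chromosome 19 genes the corresponding shares were 81.2% and 38.0%.

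By CG content, the gap to other genes was widest where CG was scarce. All protein-coding genes were divided into 3 classes of about equal size by the number of CG dinucleotides in this window. In the low class, up to 15, an H3K4me3 peak was called at 57.6% ± 4.79 of 66 zinc finger genes and 12.3% ± 2.48 of 461 other chromosome 19 genes (SD, n = 6 libraries). In the middle class, the shares were 83.3% ± 2.57 and 73.0% ± 4.95, and in the high class, above 29, they were 80.3% ± 3.18 and 81.9% ± 6.21. ZNF genes on other chromosomes had 55.2% ± 1.82 in the low class, where all genes off chromosome 19 had 18.2% ± 2.51. In the middle and high classes they had 89.0% ± 3.65 and 95.4% ± 3.17, above the zinc finger genes of chromosome 19. ZNF91 (11 CG dinucleotides), which represses SVA elements, is an example of a called CG-poor promoter, with fold enrichments of 11.5, 13.0 and 10.1 in vehicle and 8.86, 12.3 and 12.7 in OA. ZNF85, with 9, had 12.8, 13.4 and 16.2 in vehicle and 7.37, 13.5 and 11.9 in OA. In both genes the vehicle and OA ranges overlapped.

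**Figure D3:**
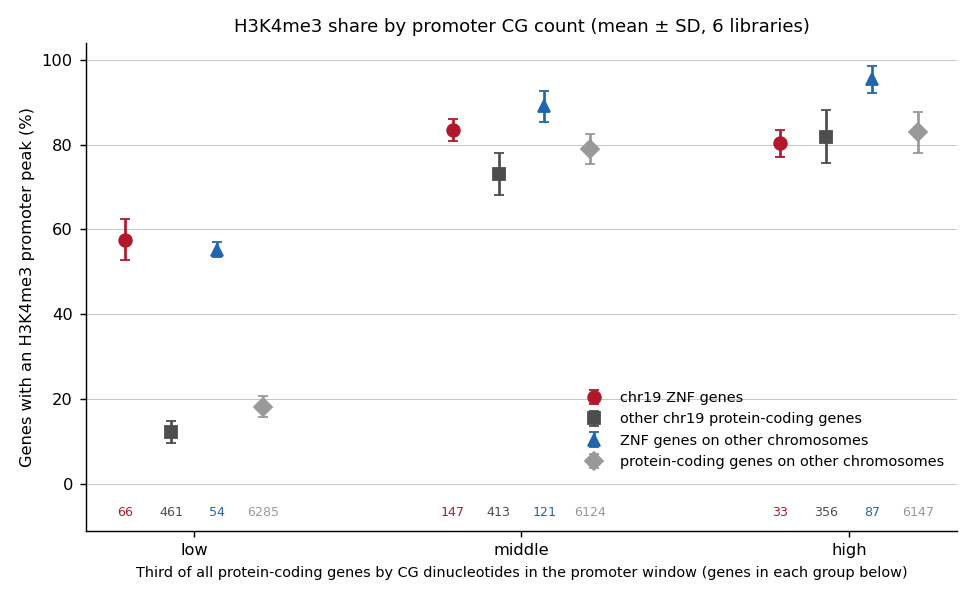
Share of genes with an H3K4me3 promoter peak, in percent, by class of the promoter CG count, as mean ± SD over the 6 vehicle and OA libraries, with the number of genes under each symbol. In the low class the chromosome 19 ZNF genes stand at 57.6% and the other chromosome 19 genes at 12.3%, and in the high class the groups are at 80.3% and 81.9%.

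The genes fall into clusters, 10 of them with at least 5 zinc finger genes and gaps of up to 500 kb, which hold 232 of the 246. In hg38 the p-arm cluster next to the centromere, with start sites from 19668839 (ZNF101) to 24087187 (ZNF254), had 37 genes and the lowest share, 51.4% ± 5.13 (SD, n = 6), with 17 genes called in all 6 libraries and 16 in none. The other 209 zinc finger genes had 80.4% ± 3.01. The cluster on the q arm from 36214665 (ZNF565) to 37779586 (ZNF573) had the highest, 24 of 26 genes in every library. Between these lay the other clusters of at least 16 genes: 68.0% ± 5.06 of the 25 genes from ZNF653 to ZNF791 on the p arm and, on the q arm, 87.0% ± 5.50 of the 23 from ZNF575 to ZNF180, 76.9% ± 3.63 of the 39 from ZNF175 to ZNF331, 68.8% ± 3.95 of the 16 from ZNF628 to ZNF835 and 82.2% ± 1.90 of the 43 from ZNF264 to ZNF446. The cluster from ZNF628 to ZNF835 had the highest median CG of the 10, at 30, so the order by share was not the order by CG. The pericentromeric cluster was also the poorest in CG, with a median of 10 dinucleotides against 22 at the other members. At 15 or fewer CG, its 29 genes were called at 57.5% ± 5.19 and the 37 elsewhere at 57.7% ± 5.31, a difference smaller than the spread between libraries. Above 15 CG, its remaining 8 genes were called at 29.2% ± 6.45 and the 172 elsewhere at 85.3% ± 2.59. Of these 8, ZNF492, ZNF99, ZNF729 and ZNF730 were never called and had 16 CG each, just above the cut. ZNF728, also never called, had 20. The contrast above 15 CG therefore depends on a few genes at the cut, and the ± is only the spread over libraries.

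**Figure D4:**
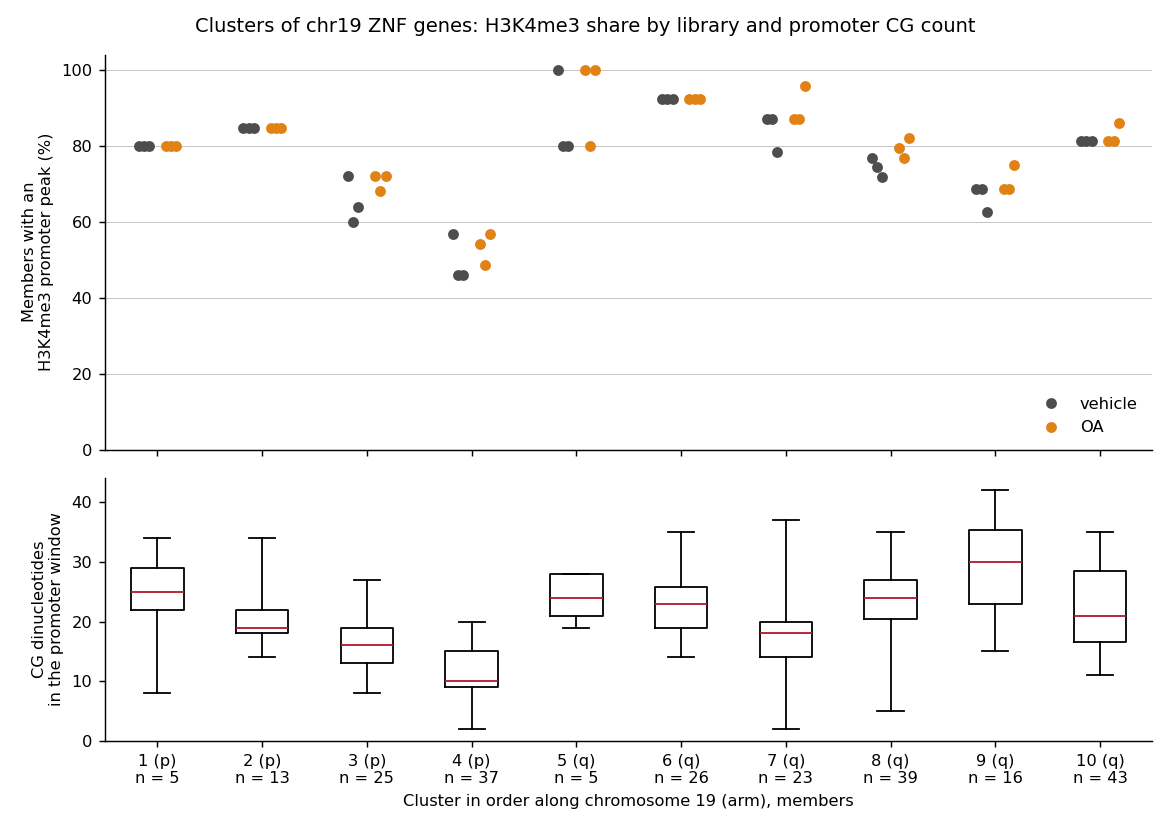
The 10 clusters of chromosome 19 ZNF genes in order along the chromosome, with arm and number of genes. Top, share of genes with an H3K4me3 promoter peak in percent, 1 point per vehicle or OA library; bottom, CG dinucleotides per promoter window as median, quartiles and full range. The fourth cluster has the lowest share, at 51.4%, and the lowest median CG, at 10.

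Reads from near-identical copies cannot be placed on one of them, so the uniqueness of the sequence was measured beside these results. Of the 50-base words within 1 kb of a start site, a median of 98.3% occurred once in the main chromosomes at the 174 constant genes and 97.3% at the 48 uncalled ones, and under 80% were 6 of the 174 and none of the 48. In the pericentromeric cluster the medians were 94.8% at the 17 called and 94.8% at the 16 uncalled genes. At ZNF91 and ZNF85 97.5% and 98.2% of the words were unique, and at ZNF43 and ZNF208 99.5% and 82.8%. By the study's methods the reads were paired-end and longer than these words, and the treatment of reads with several matches is not given in the sources used here.

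Of the 48 uncalled genes, 16 lie in the pericentromeric cluster and 32 elsewhere, and 24, 19 and 5 lie in the low, middle and high class of CG content. By gene length they are led by ZNF536, a neural transcription factor gene, ZNF98, ZNF208, which has the most fingers of the family at 36, ZNF730, ZNF578 and ZNF541, a germ cell gene. ZNF382 and ZNF471, both described elsewhere as candidate tumour suppressors silenced by DNA methylation, had no H3K4me3 peak in any library despite 27 CG dinucleotides each. DNA methylation was not analysed here. A start other than the canonical one carried a peak at 2 of the 48, ZNF587B in 6 libraries and ZNF404 in 5. A further 2 had a peak within the gene but not within 1 kb of an annotated start, ZNF814 in 6 libraries and ZNF98 in 1. ZNF93, which represses LINE-1 elements, was called in 3 libraries, vehicle replicate 1 (fold 7.11) and OA replicates 1 (6.22) and 3 (7.92). The imprinted ZNF331 was called in the same 3 libraries (6.63, 5.33 and 8.29). ZNF8 (mean percentile 62.2 ± 11.7) and ZNF787 (55.0 ± 11.5) were called in all 6.

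Called and uncalled genes encoded a median of 12 C2H2 fingers each, over a range of 1 to 36 in the family. A KRAB A-box pattern was found in 154 genes, of which 68.8% were called in all 6 libraries, beside 73.9% of the 92 genes without it. Of 13 genes with an oppositely oriented start site of another protein-coding gene within 1 kb, 12 (92.3%) were called in all 6, beside 69.5% of the 233 without one. Among all protein-coding genes with such a partner the share was 93.7%, and among the other chromosome 19 genes 89.9%. In 8 of the 13 the partner was itself a zinc finger gene of the family, so these calls are not independent. Genes for the partners of KRAB proteins were read in the same way, and 14 of 16 had a peak in all 6 libraries. The share was 52.9% of the protein-coding genes off chromosome 19 and 44.6% of the other genes on it, where TRIM28, DNMT1 and UHRF1 lie. Mean percentiles of fold at the partner genes ranged from 22.8 ± 17.4 at CBX5, encoding an HP1 protein, to 79.7 ± 6.56 at CBX1, encoding another. TRIM28 (32.7 ± 10.3), the histone chaperone gene DAXX (29.9 ± 14.5), ATF7IP (38.2 ± 16.2) and UHRF1 (38.7 ± 8.81) were among the low ones, and SETDB1 (70.7 ± 5.92) and DNMT1, the maintenance DNA methyltransferase (75.3 ± 7.51), among the high ones. CBX3 had a peak at its canonical start in 5 libraries and at an annotated start in all 6. ZFP57, a KRAB zinc finger gene on chromosome 6, had none at any annotated start.

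H3K27me3 calls were rare in the family. A broad peak lay over the promoter or gene body of 2, 1 and 0 zinc finger genes in vehicle replicates 1, 2 and 3 and of 5, 1 and 0 in the OA replicates, while the same libraries had 143, 173, 155, 200, 153 and 69 of the other chromosome 19 genes. In all, 6 of 246 genes (2.44%) had a peak in at least 1 library, and none in all 6, against 24.0% of the other genes of the chromosome, 15.3% of ZNF genes elsewhere and 31.4% of all genes off chromosome 19. Peaks covered 0.00750%, 0.00209% and 0% of the summed zinc finger gene length in vehicle and 0.0179%, 0.00221% and 0% in OA. The zinc finger genes are the longer ones, with a median of 25902 bp against 13909 bp, and the gap in the share of gene bodies was −11.1 ± 2.94 percentage points over all other genes and −12.1 ± 3.06 against those of like length. It was −5.04 with equal numbers of peaks taken from each list and −6.64 with at least 500 bp covered. The depth behind the broad peaks is unknown, and H3K27me3 below the calling threshold was not detectable. At a q-value of 1e-05 or less the difference in gene bodies was −0.0136, since few peaks were left.

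ZNF541 had H3K27me3 calls in the most libraries, 4 of 6. They were at different places in the gene, of 406 and 164 bp in vehicle replicates 1 and 2 and 488 and 173 bp in OA replicates 1 and 2, and none of them overlapped another. Their fold enrichments were 3.26, 3.44, 3.46 and 3.44. The calls at ZNF333, ZNF724, ZNF404 and ZNF324B were in OA replicate 1 alone, and that at ZNF875 in vehicle replicate 1 alone, with fold enrichments from 3.38 to 4.15. The highest −log10 q of any of these peaks was 1.90, where the list's own limit is a q-value of 0.1. ZNF724 and ZNF324B had the peak within 1 kb of the start site and also carried H3K4me3 there in all 6 H3K4me3 libraries. IgG replicate 2 also had 1 peak over a zinc finger gene, ZNF773, of 233 bp and fold 5.97.

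Few zinc finger genes without H3K4me3 at the canonical start carried H3K27me3. Of these 48 genes, 2 (ZNF541 and ZNF404, the latter with H3K4me3 at another start in 5 libraries) had an H3K27me3 peak in any library. Of the 507 other chromosome 19 genes without H3K4me3 at the canonical start, 206 (40.6%) had one.

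The comparison of OA with vehicle asked whether the marks at these genes moved with the fatty acid. Called genes numbered 183 ± 8.02 in vehicle and 191 ± 6.11 in OA (SD, n = 3), and the libraries overlapped, since vehicle replicate 1 had more than OA replicates 1 and 2. The mean share went from 74.3% to 77.8% of the zinc finger genes, from 50.1% to 55.6% of the other chromosome 19 genes and from 57.3% to 62.0% of the genes on other chromosomes. No zinc finger gene was called in all 3 OA and no vehicle library or the reverse, where 1.27% and 0% of all genes with a call had these patterns. Of the 24 genes called in 1 to 5 libraries, 22 were called in more OA than vehicle libraries, beside 87.1% of all such genes. Vehicle replicate 3 lacked 23 of these 24 genes and OA replicate 3 lacked 0. Those 2 libraries had 16086 and 21033 peaks, the fewest and the most of the 6, and depth and treatment cannot be told apart in this count. With equal numbers of peaks taken from each list, OA minus vehicle was 6.67 zinc finger genes in place of 8.67.

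The length covered by peaks within 1 kb of the start site was longer on average in OA at 175 of 198 genes with a call (88.4%), and at 9771 of the 13020 genes with a call in all. The other chromosome 19 genes were longer in OA at 78.3%. A call in any vehicle or OA library sufficed for these shares, so genes called in OA alone had to be longer in OA. The 198 included such genes, with 0 bp covered in vehicle, and none called in vehicle alone. These shares therefore cannot decide whether covered length changed. The median difference was 180 bp at zinc finger genes, 121 bp at the other chromosome 19 genes and 99.3 bp over all genes. Vehicle replicate 3 stood apart in peak length, with a median peak of 559 bp over its whole list against 824 and 1028 bp in the other vehicle libraries and 736, 972 and 964 bp in OA. Without it, 121 of the 198 zinc finger genes (61.1%) were longer in OA, beside 47.2% of the other chromosome 19 genes and 46.8% of all genes. The median difference was then 42 bp over the 198, −9.00 bp at the other chromosome 19 genes and −9.17 bp over all genes. Without OA replicate 3 these medians were 108, 57.3 and 36 bp. Every OA library exceeded every vehicle library at 32 of the 198 (16.2%), where 9.56% of all genes and 87 of 723 other chromosome 19 genes did. The opposite pattern was found at 1, ZNF675, beside 0.929% of all genes. ZNF442 had the widest gap, with 496, 0 and 229 bp covered in vehicle and 1365, 959 and 1219 bp in OA. ZNF600 followed with 1000, 875 and 198 bp in vehicle and 1315, 1089 and 1365 bp in OA. ZNF550 had 879, 988 and 626 bp against 1175, 1406 and 1483 bp, and ZNF792 had 997, 493 and 436 bp against 1043, 1046 and 1296 bp. ZNF675 had 946, 911 and 911 bp in vehicle and 830, 891 and 839 bp in OA, a smaller gap than at these 4 genes. With 3 libraries against 3, a single gene cannot reach an exact two-sided p below 0.1. Zinc finger genes longer in every OA library numbered 78 without OA replicate 1 (39.4%, beside 30.6% of all genes) and 59 without vehicle replicate 1 (29.8%, beside 17.0%). Those longer in every vehicle library numbered 14 without vehicle replicate 3 (7.07%, beside 12.5%).

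**Figure D5:**
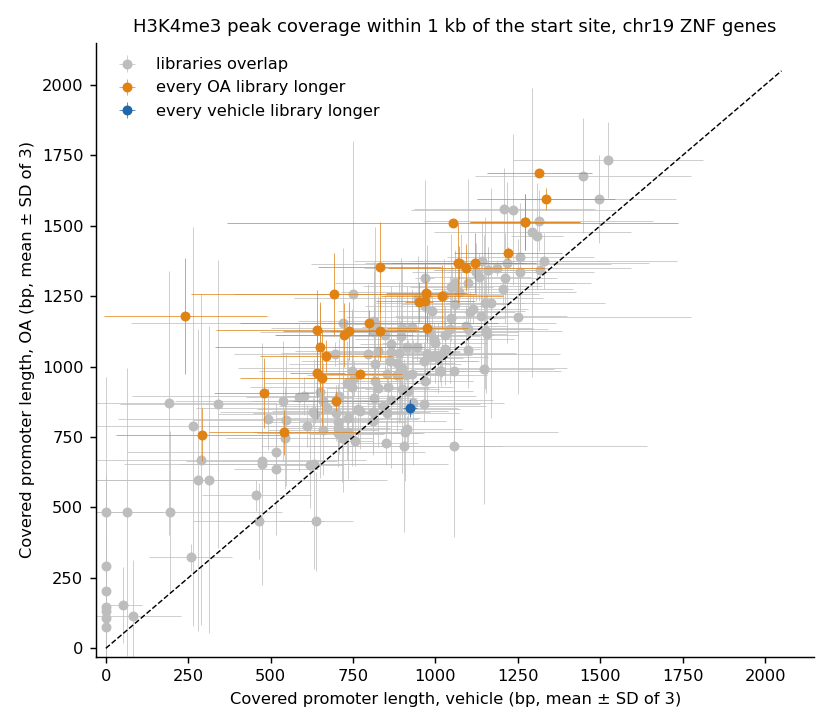
Length within 1 kb of the start site covered by H3K4me3 peaks, in bp, in vehicle (x axis) and OA (y axis), mean ± SD of 3 libraries, for the 198 chromosome 19 ZNF genes with a call in any of these libraries. Genes called in OA alone could only be longer in OA. The dashed line marks equal lengths; 32 genes (orange) are longer in every OA library, 1 (blue) in every vehicle library, and 175 of the 198 have the longer mean in OA.

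Peak strength was tested with limma on the quantile-normalized log2 fold enrichment of 11071 merged regions called in all 6 libraries, 169 of them at zinc finger genes. Regions called in only some libraries were outside this fit, and quantile normalization removes a shift common to all regions, so neither kind of change could be seen. No zinc finger region passed an adjusted p of 0.05 in either direction, where 0.00903% of all regions (1 region, higher in OA) did. At an unadjusted p under 0.05 there were 7 zinc finger regions (4.14%), all higher in OA, beside 7.9% of all regions in either direction and 4.34% higher in OA. With median scaling there were 8 (4.73%, beside 7.37% of all regions) and with a replicate block 7 (4.14%, beside 7.28%), again all higher in OA. That direction did not hold throughout: there were 3 without normalization (1 higher in OA), 14 on covered length (9 higher), 14 without vehicle replicate 1 (13 higher) and 11 without vehicle replicate 3 (6 higher), and no omission of a single replicate left all of them higher. In that order these were 1.78%, 8.28%, 8.28% and 6.51% of the zinc finger regions, below the 5.71%, 8.87%, 10.6% and 8.76% of all regions. The median log2 change was 0.04 at zinc finger regions and −0.01 over all regions, and without vehicle replicate 3 it was −0.02 at zinc finger regions. The lowest p was at ZNF155, with normalized log2 values of 3.06, 2.87 and 2.65 in vehicle and 3.46, 3.54 and 3.34 under OA, so that OA minus vehicle was 0.59 ± 0.167 (SE; limma, adjusted p = 0.419). Its vehicle and OA values did not overlap, and nor did those of ZNF888 and ZNF223. All were chosen for the lowest p-values, so this separation adds no support for a change. The difference was 0.55 ± 0.160 at ZNF888 (limma, adjusted p = 0.419) and 0.71 ± 0.216 at ZNF223 (adjusted p = 0.460), which lies in one cluster with ZNF155. On the other side, the difference was −0.37 ± 0.181 at ZNF414 (limma, adjusted p = 0.654), −0.32 ± 0.200 at ZNF274 (adjusted p = 0.726), whose protein binds the 3′ ends of zinc finger genes and recruits SETDB1, and −0.29 ± 0.185 at ZNF441 (adjusted p = 0.738). Single libraries moved the latter 3, to −0.24 at ZNF414 and −0.49 at ZNF274 without vehicle replicate 3, and to −0.15 at ZNF274 and −0.10 at ZNF441 without vehicle replicate 2. None of these 6 differences passed the threshold, and on covered length ZNF888, ZNF414, ZNF274 and ZNF441 had the opposite sign, while the log2 difference at ZNF155 was 0.02 ± 0.144 and at ZNF223 0.74 ± 0.347.

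For H3K27me3, no zinc finger gene was called in every library of one treatment and none of the other, where 0.147% of all genes with a call were called in all OA and no vehicle libraries and 0.963% in the reverse. There were 6 calls in OA, 5 of them in OA replicate 1, and 3 in vehicle, and without OA replicate 1 the difference in calls per library was −0.5 in place of 1.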

How the data were processed

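Peaks were called by the authors in each of the 16 libraries separately, and no replicates were pooled. The methods name MACS2 2.2.7.1 for H3K4me3 and SICER2 for H3K27me3, though the H3K27me3 lists have the broadPeak layout of MACS2. For every peak the deposited lists hold coordinates, the fold enrichment, which is a ratio to local background, and the p-value and q-value, both as −log10. These deposited values are not scaled between libraries. Narrow lists reach a q-value of 0.01 and broad lists 0.1. Chromosome ends fit hg38, which the submitters' processing notes name. Reads were paired-end by the methods. The aligner and control library are not given in the sources used here, and read numbers were not used here.

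From these lists, a gene counted as called where a peak shared at least 1 bp with the 1 kb on either side of its canonical GENCODE 44 start site, or with its gene body for H3K27me3. Groups came from the labels. Gene lists, clusters and members were chosen with earlier results of these data known, and shares over lists are described and not tested. Promoter windows were read from hg38 for all genes, and the printed sequences are RefSeq's, which matched 216 of the 246 genes. Finger and KRAB patterns were counted in translated GENCODE coding sequences. The deposited fold and −log10 p were inverted for the pileup and background, taking fold as (pileup + 1)/(background + 1) and p as Poisson. That step, the 50-base words, the split of the pericentromeric cluster by CG and the omission of single libraries from the mean covered length were chosen after seeing the data.

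Peaks from both treatments, 6 lists per mark, were joined into regions at 1 bp of overlap and kept with at least 2 libraries. limma 3.58.1 in R 4.3.3 compared OA with vehicle on the log2 of the fold, quantile normalized, with Benjamini-Hochberg adjustment over all 11071 regions. The study's DiffBind analysis, by which the paper reports H3K4me3 peaks enriched in OA, needs read counts and was not repeated. Scripts ran in Python 3.11.15 with numpy 2.4.6 and scipy 1.17.1, and the calculations were tested on simulated data. Alternatives were other windows and start sites, a q-value of at most 1e-05, equal peak numbers, removal of IgG regions, other comparison genes, other scalings, the omission of single replicates, and a block on the replicate number. Replicates are separate cultures by the methods. Some marker genes are not reported here.

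Genes were named by a rule: up to 8 with H3K27me3 in the most libraries, the 5 highest and 5 lowest mean percentiles of fold, up to 4 in each direction whose covered length did not overlap between treatments, the 6 longest uncalled genes, the 3 lowest limma p-values in each direction, genes called in all libraries of one treatment and none of the other (there were none), and 10 genes listed by name with the partners of KRAB proteins. ZNF587B, ZNF814 and ZNF773 were also named for small counts after their values were seen.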

Additional observations from a re-analysis of the deposited data

How the results depend on the processing

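The lead in H3K4me3 share over the other chromosome 19 genes, 23.2 percentage points, was −8.14 when set against ZNF genes on other chromosomes, and in the high CG class the shares were 80.3% and 81.9%, within the spread between libraries. It was 28.0 with a peak over the start site itself, 19.2 within 3 kb, 19.1 at any annotated start and 16.3 against genes on other chromosomes, and between 22.7 and 23.8 with each replicate left out. The lead in fold percentile was 18.0 to 19.7 with each replicate left out, and 4.89 when ranked by −log10 p. Against ZNF genes on other chromosomes it was 10.5 ± 4.56. For H3K27me3, the difference at promoters of −4.00 points became −6.92 within 3 kb, −1.02 over the start site, 0 at a q-value of 1e-05, where few peaks are left, and −1.59 with equal peak numbers. Its range without single replicates was −4.55 to −3.76. Over gene bodies, −11.1 became −6.64 with at least 500 bp covered, −0.0136 at a q-value of 1e-05, −5.04 with equal peak numbers and −16.6 against genes on other chromosomes, and −12.2 to −10.6 without single replicates.

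Between treatments, OA minus vehicle was 8.67 called genes for H3K4me3 (4.83 to 12.8 without single replicates). The mean shares in vehicle and OA were 74.3% and 77.8% in the family and 50.1% and 55.6% at the other chromosome 19 genes. At genes on other chromosomes they were 57.3% and 62.0%. For H3K27me3, OA minus vehicle was 1 called gene, and −0.333 with equal peak numbers or −0.5 without OA replicate 1 (range −0.5 to 2). Genes longer in every OA library numbered 32 to 78, and in every vehicle library 1 to 14, without single replicates, where fewer libraries have to be exceeded. The limma fit called 0 zinc finger regions under every alternative, and over all regions 1 as reported, 2 without normalization, 0 on covered length and 0 to 2 without single replicates. Without normalization the median log2 change was −0.14 at zinc finger regions and −0.18 over all regions, and without vehicle replicate 3 it was −0.02 at zinc finger regions. On covered length, the log2 changes of ZNF888 (−0.43), ZNF414 (0.16), ZNF274 (0.33) and ZNF441 (0.67) had the opposite sign, and the cause was not tested. On fold, the log2 differences without single replicates ranged from 0.45 to 0.70 at ZNF155, 0.46 to 0.63 at ZNF888, 0.49 to 0.94 at ZNF223, −0.49 to −0.24 at ZNF414, −0.49 to −0.15 at ZNF274 and −0.39 to −0.10 at ZNF441. Deviations of same-numbered vehicle and OA libraries correlated at 0.00168, 0.179 and −0.246, so the numbers were not treated as pairs. A replicate block cannot change the mean difference of 8.67 genes in a balanced design. The SD of the same-numbered differences was 12.7, and the blocked fit called 0 zinc finger regions and 1 region of all. The depth behind the H3K27me3 calls is unknown, and their lists ranged from 9091 peaks (OA replicate 3) to 47648 (vehicle replicate 2).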
